A study of Mus musculus with 6 samples.

Results

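The genes described here are those for the adult haemoglobin chains, *Hba-a1*, *Hba-a2*, *Hbb-bs* and *Hbb-bt*, with the red cell genes *Alas2* and *Slc4a1*. They were chosen by symbol, and all 6 were found among the 47729 genes listed in every mouse. Haemoglobin carries oxygen as a tetramer of alpha and beta chains, each holding a haem group. The chains and the erythroid haem enzyme are made in red cell precursors, and young circulating red cells still carry these RNAs. Adult brown adipose tissue (BAT), a heat-producing fat with a dense capillary bed, is not a known site of red cell formation, and blood in its vessels is part of a bulk sample unless it is flushed out.

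The interscapular BAT of wild-type male C57BL/6J mice was sequenced after 4 weeks of feeding, from 6 to 10 weeks of age. HFD-fed mice (n = 3) received a diet labelled 45% high-fat, and the diet of LFD-fed mice (n = 3), low-fat in the series' design, is labelled standard rodent diet. The study's methods state that the mice with the most, the middle and the least fat mass of each diet were taken, without giving the replicate number of each. Total RNA was depleted of ribosomal RNA, and no step that removes globin RNA or flushes blood from the tissue is described in the sources used here.

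Each mouse gave between 17156991 and 21603487 counts after rounding, and between 23005 and 25247 genes had a count above 0. Where 3 values follow each other for a diet, they belong to replicates 1, 2 and 3 in that order. Levels are given as TPM, the share of a transcript among all transcripts scaled to a fixed total, which correct for gene length, so that genes can be compared with each other. The tissue label was checked against 10 brown adipocyte markers, whose summed level was 5923, 7265 and 1830 TPM across the HFD-fed replicates and 2038, 584 and 327 TPM across the LFD-fed replicates. Within these sums, *Cox8b* was at 1731, 1439 and 544 TPM with HFD and at 1030, 388 and 122 TPM with LFD. *Cox7a1* was at 916, 930 and 224 TPM with HFD and at 297, 125 and 45.9 TPM with LFD. *Ucp1*, the uncoupling protein that makes brown fat produce heat, was at 796 to 4021 TPM in HFD-fed mice but at 443, 11.03 and 75.98 TPM across the LFD-fed replicates. The summed level of 12 skeletal muscle markers was 7.08 to 180 TPM in HFD-fed and 1758 to 12002 TPM in LFD-fed mice. The LFD-fed samples thus held far more muscle marker RNA, and LFD replicate 2, which had the most, was also the sample with the least *Ucp1*.

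The alpha chain genes *Hba-a1* (ENSMUSG00000069919, chromosome 11 from 32283511 to 32284465, plus strand of GRCm38) and *Hba-a2* (ENSMUSG00000069917, chromosome 11 from 32296489 to 32297298, plus strand) are neighbouring copies. The beta chain genes *Hbb-bs* (ENSMUSG00000052305, chromosome 7 from 103826534 to 103828096, minus strand) and *Hbb-bt* (ENSMUSG00000073940, chromosome 7 from 103812524 to 103813996, minus strand) form another such pair. In the GENCODE M21 transcripts of GRCm38, the coding sequences of the alpha pair (429 bases) differed at 1 base, C381T from *Hba-a1* to *Hba-a2*, and those of the beta pair (444 bases) at 1 base, C417T from *Hbb-bs* to *Hbb-bt*. Positions are counted from 1 at the A of the start codon, and neither change alters the encoded residue. The 31 coding bases around each change are shown because they are what reads within the coding sequence have to tell the copies apart, with the differing base in capitals. The stretches lie at chr11:32284328-32284358 (plus strand) for *Hba-a1*, chr11:32297145-32297175 (plus strand) for *Hba-a2*, chr7:103826677-103826707 (minus strand) for *Hbb-bs* and chr7:103812668-103812698 (minus strand) for *Hbb-bt*, each in an exon.
Hba-a1: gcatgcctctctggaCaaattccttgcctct
Hba-a2: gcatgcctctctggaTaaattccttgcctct
Hbb-bs: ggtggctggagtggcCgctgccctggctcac
Hbb-bt: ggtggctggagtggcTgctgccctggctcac

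Reads were 75 bases long. Of all windows of 75 bases in a transcript, 62.2% of those of *Hba-a1* and 81.0% of those of *Hba-a2* also occur in the partner, as do 64.3% of those of *Hbb-bs* and 56.6% of those of *Hbb-bt*. Such reads are shared out by RSEM, the program that made the counts, so the level of each copy is less certain than the sum of its pair.

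Of the alpha chains, *Hba-a2* was at 5224, 2569 and 3938 TPM across the HFD-fed replicates and at 933, 4477 and 1852 TPM across the LFD-fed replicates. *Hba-a1* was at 2549, 1619 and 2355 TPM across the HFD-fed replicates and at 504, 2302 and 853 TPM across the LFD-fed replicates. For both genes LFD replicate 2 lay among the HFD-fed mice, and LFD replicates 1 and 3 lay below all of them. The means were 2174 ± 491 TPM (SD, n = 3) with HFD and 1220 ± 953 TPM (SD, n = 3) with LFD for *Hba-a1*, and 3910 ± 1328 TPM (SD, n = 3) and 2420 ± 1839 TPM (SD, n = 3) for *Hba-a2*. The diets overlapped in both genes.

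Of the beta chains, *Hbb-bs* was the most abundant of the 6 genes, at 8974, 5162 and 7203 TPM across the HFD-fed replicates and at 1618, 7330 and 2757 TPM across the LFD-fed replicates. *Hbb-bt* was at 1198, 771 and 1087 TPM across the HFD-fed replicates and at 208, 996 and 357 TPM across the LFD-fed replicates. LFD replicate 2 again lay within the range of the HFD-fed mice for each gene, while the other 2 LFD-fed mice lay below it. The means of *Hbb-bs* were 7113 ± 1908 TPM (SD, n = 3) with HFD and 3901 ± 3023 TPM (SD, n = 3) with LFD, and those of *Hbb-bt* were 1019 ± 222 TPM (SD, n = 3) and 520 ± 419 TPM (SD, n = 3).

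*Alas2* (ENSMUSG00000025270, chromosome X from 150547375 to 150570638, plus strand of GRCm38) encodes the erythroid form of aminolevulinate synthase, which catalyses the opening step of haem synthesis. It was at 92.6, 61.6 and 84.2 TPM across the HFD-fed replicates and at 14.7, 86.5 and 30.7 TPM across the LFD-fed replicates. As with the haemoglobin chains, LFD replicate 2 lay among the HFD-fed mice and the diets overlapped, with means of 79.5 ± 16.03 TPM (SD, n = 3) with HFD and 44.0 ± 37.7 TPM (SD, n = 3) with LFD.

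*Slc4a1* (ENSMUSG00000006574, chromosome 11 from 102348824 to 102366203, minus strand of GRCm38) encodes band 3, the anion exchanger of the red cell membrane. It was at 5.43, 4.69 and 9.17 TPM across the HFD-fed replicates and at 1.46, 4.64 and 0.88 TPM across the LFD-fed replicates. The lowest HFD value was above the highest LFD value, but HFD replicate 2 and LFD replicate 2 were nearly equal in TPM. Their rounded counts were 182 (95% exact Poisson interval 156.5 to 210.4) and 146 (123.3 to 171.7). These intervals overlapped, which is not a test of the difference between the 2 mice. Intervals of this kind cover counting error only. *Slc4a1* was the least abundant gene of the 6, and its lowest count was 29 in LFD replicate 3.

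**Figure D1:**
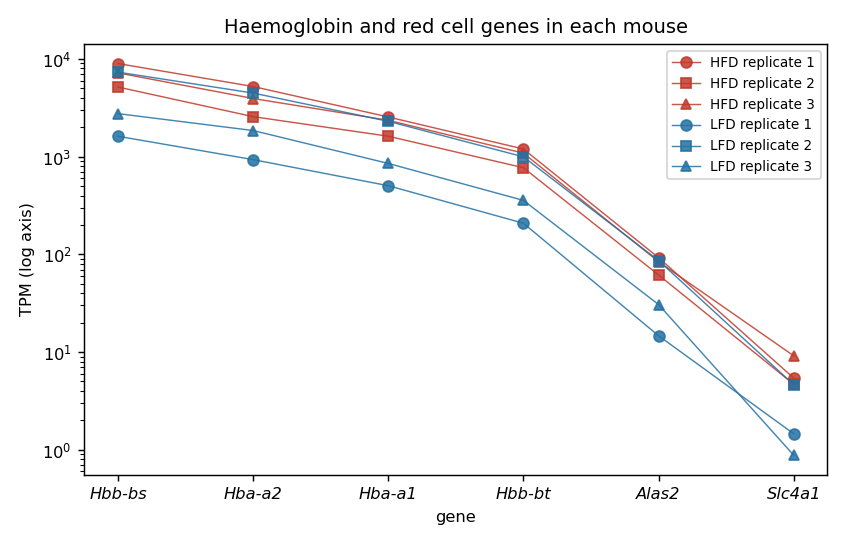
TPM of the 6 genes (x axis, in order of level) on a log axis, with 1 line per mouse, HFD-fed mice in red and LFD-fed mice in blue. The lines of LFD replicates 1 and 3 run below the others, and LFD replicate 2 runs among the HFD-fed mice except at *Slc4a1*, where it is just below them.

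The order of the levels was *Hbb-bs*, *Hba-a2*, *Hba-a1*, *Hbb-bt*, *Alas2* and *Slc4a1* in 6 of 6 mice. Within a mouse, *Hbb-bs* exceeded *Hba-a2* 1.49 to 2.01 times, *Hba-a2* exceeded *Hba-a1* 1.59 to 2.17 times, and *Hba-a1* exceeded *Hbb-bt* 2.10 to 2.42 times in TPM. Because the mice differed so much, the ranges of neighbouring chains over the 6 mice overlapped. *Alas2*, at 11.5 to 14.2 times below *Hbb-bt* within a mouse, and *Slc4a1* had ranges of their own. Over the 6 mice, the highest level was 5.05 (*Hba-a1*) to 6.30 (*Alas2*) times the lowest for 5 of the genes, and 10.4 times for *Slc4a1*.

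Summed, the 4 haemoglobin chains made up 1.79%, 1.01% and 1.46% of all TPM across the HFD-fed replicates and 0.326%, 1.51% and 0.582% across the LFD-fed replicates. As a share of all counts they took 0.944%, 0.429% and 0.687% across the HFD-fed replicates and 0.142%, 0.559% and 0.211% across the LFD-fed replicates. The level varied more among the LFD-fed mice, 4.63 times from lowest to highest in TPM, than among the HFD-fed mice, 1.77 times, a difference in spread that was not tested. It rests on LFD replicate 2, since the other LFD-fed mice differed 1.78 times from each other. As a share of counts the spreads were 3.94 times with LFD and 2.20 times with HFD. The diets were closer in spread in log2 CPM, the log of counts scaled between libraries. There the SD (n = 3) with HFD and LFD was 0.685 and 0.889 for *Hba-a1* and 0.766 and 0.87 for *Hbb-bs*. It was 0.682 and 0.912 for *Hbb-bt*, but 0.88 and 0.854 for *Hba-a2*, which varied slightly more with HFD. The difference in spread thus depended on the scale. Between mice of the same replicate number, the summed TPM of the HFD-fed mouse was 5.50, 0.670 and 2.51 times that of the LFD-fed mouse for numbers 1, 2 and 3. The pair numbered 2 therefore ran against the other pairs. In a bulk sample, fewer red cells and less RNA per red cell cannot be told apart.

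The balance between the chains varied less than their level, 1.23 times against 5.50 times from the lowest to the highest of the 6 mice in TPM. The ratio of alpha to beta TPM was 0.764, 0.706 and 0.759 across the HFD-fed replicates and 0.787, 0.814 and 0.869 across the LFD-fed replicates. The highest HFD value was below the lowest LFD value, with means of 0.743 ± 0.032 (SD, n = 3) and 0.823 ± 0.041 (SD, n = 3). An exact two-sided permutation test gave p = 0.1, the lowest value that groups of 3 permit. After Benjamini-Hochberg adjustment over the 5 ratios compared, the exact two-sided permutation test gave p = 0.375. Because no value below 0.1 was possible, however far apart the diets lay, this test could not decide whether the ratio differed. The same order held for the ratio of rounded counts, at 0.731 to 0.786 in HFD-fed and 0.823 to 0.873 in LFD-fed mice.

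The other ratios overlapped between the diets, and the same limit holds for their permutation tests. *Hba-a2* made up 61.3% to 67.2% of alpha TPM in HFD-fed and 64.9% to 68.5% in LFD-fed mice (exact two-sided permutation p = 0.3). *Hbb-bs* made up 86.9% to 88.2% of beta TPM in HFD-fed and 88.0% to 88.6% in LFD-fed mice (exact two-sided permutation p = 0.2), so *Hbb-bs* supplied most of the beta chain RNA in every mouse. For each 1000 TPM of haemoglobin chains there were 5.16 to 6.09 TPM of *Alas2* in HFD-fed and 4.51 to 5.73 TPM in LFD-fed mice (exact two-sided permutation p = 0.4). *Alas2* therefore followed the chains closely from mouse to mouse. *Slc4a1* followed them less closely, with 0.303 to 0.629 TPM for each 1000 in HFD-fed and 0.151 to 0.447 TPM in LFD-fed mice (exact two-sided permutation p = 0.3). The length by which its TPM was corrected ran from 1505 bases in LFD replicate 1 to 2767 in LFD replicate 3. For each 1000 chain counts there were 0.985 to 2.60 counts of *Slc4a1* in HFD-fed and 0.801 to 1.33 in LFD-fed mice.

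**Figure D2:**
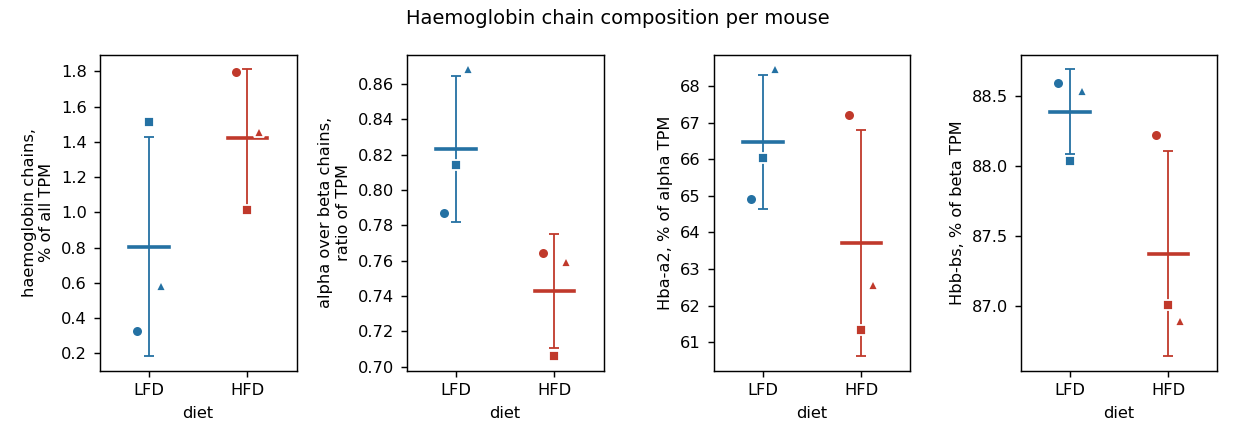
From left to right, the summed haemoglobin chains as a percentage of all TPM, the ratio of alpha to beta TPM, and the percentages of *Hba-a2* in alpha and *Hbb-bs* in beta TPM, with circles, squares and triangles for replicates 1, 2 and 3, wide lines for the mean and bars for the SD (n = 3 per diet). The axes do not start at 0. The diets overlap in all panels except the ratio of alpha to beta TPM, where HFD-fed mice sit at 0.706 to 0.764 and LFD-fed mice at 0.787 to 0.869.

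The comparison of the diets asked whether red cell RNA in BAT differed after high-fat feeding. All 6 genes had a positive log2 fold change (HFD over LFD), and edgeR's quasi-likelihood test called 0 of 6, where a call needs an adjusted p below 0.01 together with a log2 fold change beyond 1.5 in either direction. The same test called 0.0% of all 17668 genes tested, so the absence of a call is not particular to these genes. For the alpha chains, edgeR gave log2 fold changes of 1.25 (standard error 0.61, adjusted p = 0.540) for *Hba-a1* and 1.16 (standard error 0.67, adjusted p = 0.623) for *Hba-a2*. For the beta chains it gave 1.31 (standard error 0.68, adjusted p = 0.572) for *Hbb-bs* and 1.39 (standard error 0.59, adjusted p = 0.484) for *Hbb-bt* (edgeR). *Alas2* had 1.37 (standard error 0.59, edgeR adjusted p = 0.490). The 95% intervals of these 5 genes ran from between -0.42 and -0.020 to between 2.70 and 2.93, so they hold both no change and a rise of several fold.

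*Slc4a1* had the highest log2 fold change of the 6, 1.68 (standard error 0.60, 95% interval 0.24 to 3.12), with an edgeR adjusted p of 0.406. It was the 1 gene of 6 at an unadjusted p under 0.05, a level that 10.5% of all tested genes reached. It was also the 1 gene of 6 whose log2 CPM was higher with HFD without overlap between the diets, a pattern that 6.72% of all tested genes shared. On the log2(TPM + 1) scale *Slc4a1* was again the 1 gene of 6, beside 1.65% of all genes. DESeq2 with default settings, the other count test run, called 0 of 6 and 2.03% of the 20275 genes to which it gave an adjusted p. It gave adjusted p-values of 0.119 to 0.426 for the 6 genes, 5 of which were at an unadjusted p under 0.05, beside 8.76% of all genes it tested. The median log2 fold change of all tested genes was -0.05 on the count scale and -0.18 on the log2(TPM + 1) scale.

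LFD replicate 2 decided much of the size of the difference. Without it the log2 fold changes were 1.83 to 2.57, all 6 genes were at an unadjusted p under 0.05 (7.15% of all genes tested in that fit), and the edgeR adjusted p-values were 0.412 to 0.682. Without HFD replicate 1, which had the highest haemoglobin level, they were 0.53 (*Hba-a2*) to 1.69 (*Slc4a1*). At an unadjusted p under 0.05 there were 0 of 6 genes without HFD replicate 1 (1778 of all 18473 genes tested in that fit). The same 0 of 6 held without HFD replicate 3 (1106 of 18240) and without LFD replicate 1 (2627 of 18392). There were 3 of 6 without HFD replicate 2 (1131 of 18293) and 1 of 6 without LFD replicate 3 (3146 of 18236). The direction was upward for all 6 genes whichever mouse was left out. Pairing mice by replicate number, each of the 5 genes other than *Slc4a1* was higher with HFD in 2 of 3 pairs. *Slc4a1* was higher in 3 of 3, which its lack of overlap between the diets gives for any pairing.

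**Figure D3:**
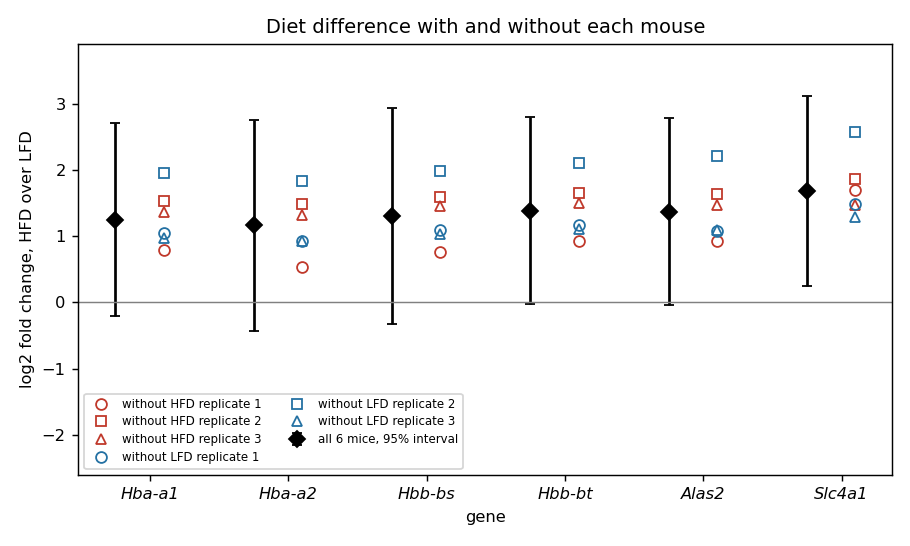
Log2 fold change (HFD over LFD) of each gene from edgeR's quasi-likelihood test, with all 6 mice (black, bars for the 95% interval) and with 1 mouse left out (open symbols). All points lie above 0, the highest are those without LFD replicate 2, and of the intervals shown 1, that of *Slc4a1*, excludes 0.

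The 6 genes moved together from mouse to mouse. Over the 6 mice, Pearson's r between the log2 CPM of a gene and the mean of the other 5 was 0.895 for *Slc4a1*, 0.963 for *Hba-a2* and 0.990 to 0.999 for the rest. These correlations are descriptive, since all genes of a mouse come from the same library and the copies share reads. The mean of the centred log2 CPM of the genes was 1.40, 0.13 and 0.66 across the HFD-fed replicates and -1.17, 0.34 and -1.37 across the LFD-fed replicates.

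Since the genes moved together, their RefSeq promoters (GRCm38.p6) were set side by side for 5 of the genes. RefSeq places the starts 3 (*Hba-a2*) to 168 (*Hbb-bs*) bases further into the genes than the outermost GENCODE M21 starts, which the gene positions above use, so the windows searched overlap the genes by that much. The motifs searched, on both strands, were GATAA, the core bound by GATA factors, CACCC, bound by factors such as KLF1, CCAAT, and the TATA-like ATATAA. In the 250 bases before the RefSeq start, 22.6% of 32851 RefSeq promoters hold GATAA, 52.0% CACCC, 33.8% CCAAT and 9.1% ATATAA. All 5 promoters held GATAA and CACCC, and the 4 chain promoters also held CCAAT and ATATAA, neither of which was found in that of *Alas2*. A match is a description and not a shown binding site. The 2 alpha promoters were identical in 297 of 297 aligned bases after a shift of 3, so that of *Hba-a1* stands for both, while those of *Hbb-bs* and *Hbb-bt* were identical in 168 of 299 (56.2%). The 30 bases around each GATAA are shown 5′ to 3′ because all 5 promoters hold this motif, with the match in capitals, which for *Alas2* is on the opposite strand and reads TTATC. They lie upstream of both annotated starts, at chr11:32283478-32283507 (plus strand) for *Hba-a1*, chr7:103828114-103828143 (minus strand) for *Hbb-bs*, chr7:103814109-103814138 (minus strand) for *Hbb-bt* and chrX:150547319-150547348 (plus strand) for *Alas2*.
Hba-a1: gtccgggcaactGATAAggattccctgcac
Hbb-bs: tgcacaGATAAggacaaacattattcagag
Hbb-bt: ttagctgcaagGATAAgaacagacactact
Alas2: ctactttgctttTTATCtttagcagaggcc

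Among 13782 tested genes with a mean log2 CPM of at least 1, the 8 whose log2 CPM was most like the mean of the 6 genes over the 6 mice included *Ube2o* (Pearson's r 0.978), *Fam46c* (0.970), *Atg4c* (0.970), *Zfp493* (0.970), *R3hcc1l* (0.961) and *Gm22042* (0.947). *Fam46c*, which encodes a poly(A) polymerase of the cytoplasm, was at 14.4, 12.8 and 16.9 TPM across the HFD-fed replicates and at 3.18, 21.8 and 6.81 TPM across the LFD-fed replicates. It thus had LFD replicate 2 above the HFD-fed mice and the other LFD-fed mice below them. On the log2(TPM + 1) scale, *Fam46c* (r 0.957) was at place 3 and was among the 3 of these 8 genes that were still in the 8 most alike. There, r fell to 0.819 for *Gm22042*, 0.704 for *Ube2o*, 0.473 for *Zfp493*, 0.402 for *Atg4c* and 0.385 for *R3hcc1l*. The likeness of those genes thus depended on the scale.

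Other globin genes showed that the haemoglobin RNA was of the adult type. Of 7 embryonic and minor globin genes, 4 (*Hba-x*, *Hbb-y*, *Hbb-bh0* and *Hbb-bh2*) had 0 counts in all mice, and the highest count of the others was 8, for *Hbq1b* in HFD replicate 1. The globins of other cells had negative log2 fold changes. *Mb*, the oxygen store of muscle, was at 50.2, 152 and 6.20 TPM across the HFD-fed replicates and at 95.03, 326 and 63.9 TPM across the LFD-fed replicates, which overlapped (log2 fold change -0.98, edgeR adjusted p = 0.845). *Cygb*, a globin of fibroblast-like cells, was at 7.69 to 11.4 TPM in HFD-fed and 13.3 to 38.1 TPM in LFD-fed mice, with a log2 fold change of -1.10 (edgeR adjusted p = 0.246).

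The haem synthesis enzymes that all cells use had fold changes around or below 0. Of 8 such genes, 8 were tested and 0 called, 1 had a log2 fold change above 0 and 7 below, and their median was -0.18. *Alas1*, the form of aminolevulinate synthase found in all tissues, was at 126, 133 and 92.0 TPM across the HFD-fed replicates and at 217, 202 and 74.3 TPM across the LFD-fed replicates. It therefore exceeded *Alas2* in every mouse in TPM, and its log2 fold change was -0.40 (edgeR adjusted p = 0.905). *Fech*, which inserts iron into protoporphyrin to form haem, and *Urod* had log2 fold changes of -0.12 and -0.16.

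Of 17 red cell membrane and skeleton genes, 12 were tested and 0 called, with 7 log2 fold changes above 0, 5 below and a median of 0.17. Those with the highest levels were *Aqp1*, a water channel also of capillary endothelium (log2 fold change -0.57), *Epb41*, which encodes protein 4.1 (0.36), *Gypc*, which encodes glycophorin C (-0.16), and *Dmtn*, which encodes dematin (0.04). Other genes of this list are named after their values were seen. *Epb42* (1.83, edgeR adjusted p = 0.566) and *Ermap* (1.06, edgeR adjusted p = 0.647) were among the 7 above 0. Both had low counts and overlapped between the diets. *Sptb*, *Ank1* and *Tmod1*, skeleton genes that striated muscle also expresses, had log2 CPM values that were lower with HFD without overlap, as 9.23% of all tested genes did, and *Aqp1* did so too on this scale but not in TPM. Their log2 fold changes were -3.17, -1.59 and -3.28 (edgeR adjusted p = 0.177 to 0.198). All 12 skeletal muscle markers were lower in every HFD-fed mouse too, with a median log2 fold change of -6.21, 0 called and 12 at an unadjusted p under 0.05 by edgeR. The part of muscle RNA in the values of the red cell genes was not tested.

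Of 14 other erythroid differentiation genes, 13 were matched (1 was not analysed here), 8 were tested and 0 called, and their log2 fold changes ran from 0.00 to 1.85 with a median of 0.72. *Tfrc*, the transferrin receptor (0.83), *Slc25a37*, the mitochondrial iron importer mitoferrin (0.77), *Bpgm*, which makes the bisphosphoglycerate of red cells (0.68), and *Blvrb*, a biliverdin reductase (0.05), were the most abundant of them. *Bpgm* was at 44.6, 30.0 and 37.6 TPM across the HFD-fed replicates and at 16.2, 45.9 and 23.4 TPM across the LFD-fed replicates, with LFD replicate 2 above all other mice and LFD replicates 1 and 3 below the HFD-fed mice. *Car2*, a carbonic anhydrase of red and other cells (1.58, edgeR adjusted p = 0.209), and *Trim10* (1.85, edgeR adjusted p = 0.422) were the 2 genes of this list with higher log2 CPM in every HFD-fed mouse, beside 6.72% of all tested genes, and are named after their values were seen. In TPM, *Trim10* overlapped between the diets.

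Of the transcription factors that mark red cell precursors, *Gata1* had 1 to 3 counts and *Klf1* 0 to 4 counts in each mouse. Others of the list were higher, with 0 to 11 counts for *Gfi1b*, 3 to 50 for *Nfe2* and 26 to 156 for *Tal1*. *Gfi1b* and *Nfe2* are named after their values were seen. Of 8 erythroid transcription factor genes, 5 were tested and 0 called, with 4 log2 fold changes above 0, 1 below and a median of 0.46. The most abundant were *Ldb1* (-0.37), *Lmo2* (0.46), *Zfpm1* (0.14) and *Tal1* (0.70), which other cell types express too.

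Genes for the clearance of haemoglobin and haem differed widely in level, from *Hpx* at 0.040 to 3.0 TPM to *Ftl1* at 1864 to 4547 TPM. Of 10, 10 were tested and 0 called, with 7 log2 fold changes above 0, 3 below and a median of 0.42. *Hp*, which encodes the haemoglobin-binding protein haptoglobin, was at 741 to 1326 TPM in HFD-fed and 1105 to 2398 TPM in LFD-fed mice (log2 fold change -0.43). The iron store genes *Ftl1* (0.60) and *Fth1* (0.28) and the receptor gene *Lrp1* (-0.29) were the other most abundant genes of the list. *Cd163*, the macrophage receptor for haptoglobin bound to haemoglobin, was at 11.5, 33.8 and 13.3 TPM across the HFD-fed replicates and at 37.2, 82.8 and 78.6 TPM across the LFD-fed replicates, a log2 fold change of -1.53 (edgeR adjusted p = 0.241). In log2 CPM, *Cd163* was the 1 gene of the 10 that was lower with HFD without overlap, beside 9.23% of all tested genes, and *Ftl1* and *Hmox2* (0.42, edgeR adjusted p = 0.494) were the 2 that were higher without overlap, beside 6.72%. In TPM, *Cd163* was again lower without overlap, while *Ftl1* and *Hmox2* overlapped between the diets. *Cd163*, *Hpx* and *Hmox2* were chosen after their values were seen.

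**Figure D4:**
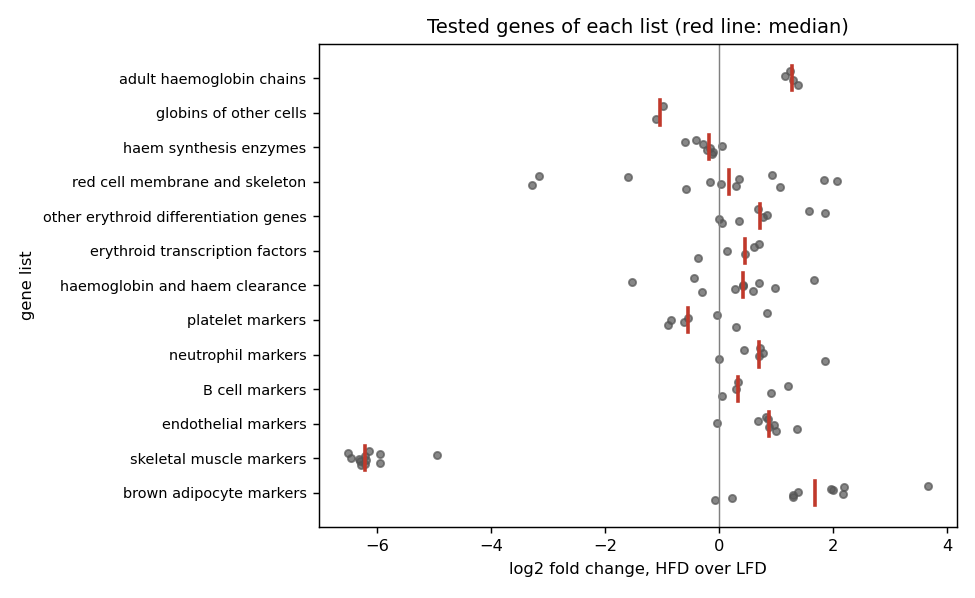
Log2 fold changes (HFD over LFD, x axis) of the tested genes of each list (y axis), 1 point per gene, with a red line at the median; the height of a point within its row has no meaning. Medians are 1.28 for the adult haemoglobin chains, -0.18 for the haem synthesis enzymes, 0.72 for the other erythroid differentiation genes and -6.21 for the skeletal muscle markers.

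Markers of other blood and vessel cells were set beside the red cell genes. Platelet markers (10 listed, 7 tested, 0 called, median log2 fold change -0.55) had a summed level of 161, 268 and 484 TPM across the HFD-fed replicates and of 64.1, 181 and 492 TPM across the LFD-fed replicates. Neutrophil markers (10 listed, 6 tested, 0 called, median 0.71) had 26.2, 28.9 and 185 TPM and 6.34, 40.8 and 162 TPM in the same order of mice. In both lists the replicates numbered 3 were the highest of their diet, unlike in the haemoglobin chains. B cell markers (6 listed, 5 tested, 0 called, median 0.33) summed to 5.69, 7.06 and 11.3 TPM in HFD-fed and 1.25, 8.23 and 5.32 TPM in LFD-fed mice. Endothelial markers (8 listed, 8 tested, 0 called, median 0.87) summed to 157, 575 and 696 TPM in HFD-fed and 178, 318 and 394 TPM in LFD-fed mice, and HFD replicate 1, the highest in haemoglobin, was the lowest of all in them. Brown adipocyte markers (10 tested, 0 called) had a median of 1.68. LFD replicate 1, with the least haemoglobin RNA in TPM, also had the lowest summed TPM of platelet, neutrophil and B cell markers. In log2 CPM, *Hba-a2* was likewise lowest in LFD replicate 1 (8.975, against 9.019 in LFD replicate 3). The other chains were lowest in LFD replicate 3, at 8.253 against 8.482 for *Hba-a1*, 9.667 against 9.810 for *Hbb-bs* and 7.035 against 7.216 for *Hbb-bt*. Most of the platelet sum was *Pf4*, at 56.2 of the 64.1 TPM in LFD replicate 1. *Gp9*, a platelet marker named after its values were seen, was lower in HFD replicates 2 and 3 than in LFD replicate 1. The part of the amount of blood, of vessels or of muscle in the differences between mice was not tested.

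**Figure D5:**
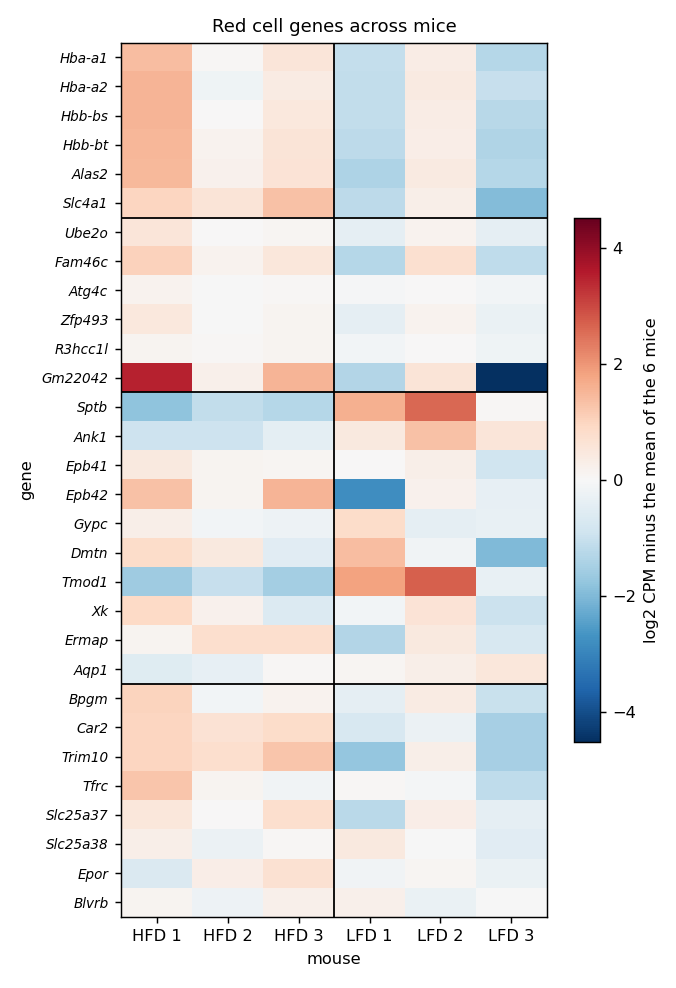
Log2 CPM of each gene minus its mean over the 6 mice (colour scale) for, from top to bottom, the 6 genes, the named genes most like them, and tested genes of the membrane and erythroid lists, with HFD-fed mice on the left. In the top block HFD replicate 1 is the reddest column and LFD replicates 1 and 3 are blue, while *Sptb*, *Ank1* and *Tmod1* are red in LFD replicates 1 and 2.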

How the data were processed

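For each mouse the authors deposited RSEM expected counts, without normalization, in which a read matching several genes is divided among them, and TPM. The authors' processing notes name Trimmomatic 0.36, RSEM 1.3.0, DESeq2 1.10.1 and GRCm38.p4. RSEM's posterior standard deviation of each count, also deposited, was at most 1.92% of the count for the haemoglobin chains.

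Counts were rounded and tested in R 4.3.3 with edgeR 4.0.16 (quasi-likelihood test, TMM, edgeR's filter on low counts, Benjamini-Hochberg adjustment over all 17668 genes tested). Log2 CPM used a prior count of 2. The thresholds were those of the study. Alternatives used DESeq2 1.42.0 and limma 3.58.1. Scripts were tested on simulated data.

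Mice were grouped by their labels, which also number them 1 to 3. Same-numbered mice deviated from their diet means together (r 0.498, 0.229 and 0.522 across genes, against -0.528 to 0.0532 in other pairs), so the numbers were treated as pairs in an alternative. Within a diet, the deviations of the mice from their mean cancel out for each gene. The lower values in other pairs therefore follow in part from the positive ones and are not separate evidence of pairing. Nothing in the sources says that same-numbered mice were matched.

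The 6 genes and the 14 lists were chosen with earlier results of these data known. From each list, up to 4 tested genes with the highest mean log2 CPM were named, and any gene called. Added names are marked as such, and some genes that these rules name are not reported here. Positions come from GENCODE M21 and promoters from RefSeq.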

Additional observations from a re-analysis of the deposited data

How the results depend on the processing

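The 6 genes kept their direction, and 0 of 6 were called, in every alternative listed here: DESeq2, RLE size factors, no filter or a minimum of 10 counts in every sample, mitochondrial and ribosomal RNA genes left out, the haemoglobin genes left out of the scaling, limma on log2(TPM + 1), each mouse left out, and an adjusted p under 0.05 with no limit on the fold change. With the replicate number as a block, a pairing taken from the labels, log2 fold changes were 1.19 to 1.94 with adjusted p-values of 0.233 to 0.463, and no call changed. Over all genes, edgeR called 0, DESeq2 called 411 and limma on log2(TPM + 1) called 1. The cause of these differences was not tested. With 1 mouse left out, log2 fold changes ranged from 0.80 to 1.95 for *Hba-a1*, from 0.53 to 1.83 for *Hba-a2*, from 0.76 to 1.99 for *Hbb-bs*, from 0.93 to 2.11 for *Hbb-bt*, from 0.93 to 2.21 for *Alas2* and from 1.29 to 2.57 for *Slc4a1*. The ratio of alpha to beta chains, compared on counts after the data were seen, differed by -0.08 between diets on either scale. By Spearman's rho, 2 of the 13782 genes reached 1, both among the 8 named by Pearson's r. Without mitochondrial and ribosomal RNA genes, the haemoglobin chains took 0.514% to 1.22% of counts in HFD-fed and 0.165% to 0.615% in LFD-fed mice. Depth limits *Slc4a1*, with 29 to 345 counts, and the precursor factors more than the haemoglobin chains.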
